A study of Mus musculus with 12 samples.

Results

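The 10 genes described here are markers by which injury and repair of kidney tubule cells are commonly read: Havcr1, Lcn2, Clu, Spp1, Vcam1, Sox9, Cd44, Saa3, C3 and Plin2. They were taken by gene symbol from tables of 55491 genes, in which each symbol occurred once, and 9 of the 10 passed the filter on low counts that left 13513 genes for testing. Havcr1 had no count in any library and was not tested. They were followed in PT-22, a mouse cell line that the labels call proximal tubule and that carries the genotype Pax2-/-, Pax8fl/fl, Rosa-CreERT2 in every group, controls included. Rosa-CreERT2 is a Cre recombinase made from the ubiquitous Rosa26 locus that becomes active when 4-hydroxytamoxifen is given, and Cre then removes the Pax8 sequence between loxP sites. The study asked how loss of PAX8, a paired-box transcription factor of kidney epithelium, changes gene expression. The control group was untreated, and the other groups were exposed to 1 µM 4-hydroxytamoxifen over 2 days at confluence and collected at day 2, day 6 or day 12. PolyA RNA was sequenced from 3 libraries per group, lettered A, B and C. All libraries come from 1 cultured line. A vehicle control and untreated cells of later days were not among the samples, so PAX8 loss, the drug, Cre activity and time in culture cannot be told apart. Nothing in the labels shows that libraries of a group are separate cultures, and the spread behind every p-value may therefore be technical.

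A proximal tubule cell that is damaged in the kidney loses part of its transport programme and switches on genes of dedifferentiation, adhesion, matrix interaction and innate defence. Some of these products serve as urine or tissue markers of acute kidney injury, among them KIM-1 (encoded by Havcr1), NGAL (Lcn2), clusterin (Clu) and osteopontin (Spp1). SOX9 marks tubule cells that divide and repair, and cells that keep VCAM1 are described in mouse and human kidney as failing to repair.

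Start regions are shown for Lcn2, Saa3 and C3, which encode the secreted defence proteins NGAL, SAA3 and complement C3. The RNA of all 3 members was higher at day 12 and yet took different courses before it. Each line holds 250 bases before and 50 bases after the RefSeq start of the gene, read on the gene's strand from RefSeq on GRCm38.p6, and capitals mark a match to the C/EBP site (TTGC, any 2 bases, AA). The windows are chr2:32387690-32387989 (minus strand) for Lcn2, chr7:46715627-46715926 (minus strand) for Saa3 and chr17:57228087-57228386 (minus strand) for C3.
Lcn2: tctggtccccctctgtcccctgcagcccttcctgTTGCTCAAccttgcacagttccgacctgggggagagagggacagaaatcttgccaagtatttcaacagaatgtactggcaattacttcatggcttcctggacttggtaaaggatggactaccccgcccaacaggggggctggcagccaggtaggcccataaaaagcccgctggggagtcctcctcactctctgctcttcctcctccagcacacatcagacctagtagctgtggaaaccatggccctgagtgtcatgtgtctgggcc
Saa3: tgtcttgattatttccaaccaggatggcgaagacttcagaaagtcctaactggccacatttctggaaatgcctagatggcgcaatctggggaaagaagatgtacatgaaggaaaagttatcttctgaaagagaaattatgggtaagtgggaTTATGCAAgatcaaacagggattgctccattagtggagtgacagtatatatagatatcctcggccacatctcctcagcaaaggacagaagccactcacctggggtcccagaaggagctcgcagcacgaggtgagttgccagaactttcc
C3: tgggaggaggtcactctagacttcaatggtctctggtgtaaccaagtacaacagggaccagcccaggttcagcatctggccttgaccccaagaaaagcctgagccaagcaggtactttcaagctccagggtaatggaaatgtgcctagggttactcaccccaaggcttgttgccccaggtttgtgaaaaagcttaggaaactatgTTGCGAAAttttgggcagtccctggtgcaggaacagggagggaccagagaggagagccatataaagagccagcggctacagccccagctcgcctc
In Lcn2 the match began 216 bases before the start and in C3 it began 45 bases before it. In Saa3 the match lay on the opposite strand, 99 bases before the start. Windows were found for 7 of the 10 members, 10 windows in all, and both strands of each were searched. The C/EBP site was present in 10.8% of the 32851 mouse windows of this length, and among the members also in 1 window each of Spp1 and Havcr1. The NF-kB consensus (8.459% of windows) was found in Plin2 alone among the members, and the AP-1 site TGANTCA (7.808% of windows) in 1 window of Havcr1 alone. A direct repeat of AGGTCA with 1 base between the copies and 1 mismatch allowed (0.554% of windows) was in no window of a member. These matches describe letters in a window and say nothing about binding.

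The 12 libraries held 4326667 (day 2 B) to 11654959 counts (day 2 C), so 3 counts corresponded to 0.256 to 0.702 CPM (counts relative to the library total, scaled here by TMM). Pax8, the targeted gene, gave 221, 228 and 226 CPM in the control libraries, 378, 460.4 and 367 at day 2, 249.5, 249 and 268 at day 6, and 252, 232 and 241 at day 12. Its RNA was thus not lower in any treated library than in any control library. Gene-level counts do not show which exons were read, so they do not check the deletion, and the treated libraries are named by their labels. Pax2, which the labels give as absent, was read at a mean of 46.8 CPM in control and 50.5 to 79.0 CPM at the later days, again without a view of exons. Of 10 proximal tubule markers, Slc34a1 and Slc5a2 were at 0 in every library, Miox, Slc22a6 and Slc27a2 had 1 to 5 counts in all, and Lrp2, Anpep and Aqp1 were present. The sum of the 10 was 552 to 586 CPM in control, 674 to 735 at day 2, 1134 to 1388 at day 6 and 648 to 850 at day 12. In control the largest part was Lrp2, at a mean of 268 CPM. Aqp1, the water channel, followed at 173 CPM and Anpep at 114 CPM. In the treated groups the sum was mostly Aqp1, at means of 558, 1044 and 659 CPM at days 2, 6 and 12. Hnf4a, a transcription factor of proximal tubule, stood at 12.8 CPM in control and at 1.03, 0.303 and 2.05 CPM at days 2, 6 and 12. Markers of fibroblasts and smooth muscle, 6 of 10 of them tested, summed to 6.92 to 7.72 CPM in control, 18.8 to 24.3 at day 2, 73.6 to 94.7 at day 6 and 349 to 416 at day 12. Acta2 held 3.11 CPM of the control sum and 293 CPM of that at day 12. In the same 2 groups Tagln held 1.68 and 54.2 CPM, Dcn 0.246 and 17.8, and Postn 0.0810 and 7.70. Col1a1 was at 2.20 and 3.03 CPM, and Col3a1 and Pdgfra were at 0. Endothelial markers summed to 30.8 to 31.8 CPM in control, 44.9 to 46.1 at day 2, 38.8 to 44.0 at day 6 and 48.8 to 50.4 at day 12, mostly Flt1, with Cdh5 and Kdr at 0. The part of either marker list in the rises given below was not tested. Leukocyte markers summed to 33.3 to 40.0 CPM in control and to 33.3 to 37.1 CPM over the treated libraries, with Itgam, Cd3e and Tyrobp at 0. Of the 12 leukocyte markers 4 were tested, and 3 rose and 1 fell at day 12. Among all tested genes, 26.1% rose and 26.6% fell at that day. Group means in control and at day 12 were 18.6 and 7.68 CPM for Csf1r and 11.6 and 16.1 CPM for Cd14. They were 5.24 and 8.60 CPM for Cd68 and 0.496 and 1.48 CPM for Lyz2. Malat1, a nuclear RNA, took 0.373 to 0.474% of the counts in the day 6 libraries and 0.218 to 0.285% in all others, and mitochondrial genes took 3.75 to 5.70%.

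Most of the markers were higher after treatment, and more of them at each later day. At day 2, 5 of the 9 tested markers rose (Lcn2, Sox9, Cd44, Saa3 and Plin2), 2 fell (Clu and C3) and 2 did not pass the test (Spp1 and Vcam1), where a gene passed at an adjusted p under 0.05 in edgeR's quasi-likelihood test over all 13513 genes. Among all tested genes, 21.2% passed at day 2, with 10.3% risen and 10.9% fallen. At day 6, 7 markers rose and Vcam1 fell, against 54.3% of all genes called (26.7% risen, 27.6% fallen), and C3 did not pass. At day 12, 8 markers rose and Vcam1 fell, against 52.8% of all genes (26.1% risen, 26.6% fallen). The median log2 difference from control over the 9 tested markers was 0.56 at day 2, 0.76 at day 6 and 1.02 at day 12, while that of all genes was -0.0015, -0.0060 and -0.0028. The 3 comparisons with control share the same control libraries and are not independent of each other. In bulk RNA, more cells that express a gene and more RNA per cell cannot be told apart.

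The libraries of treatment and control did not overlap for 7 of 9 markers at day 2, where 15.6% of all genes lay higher without overlap and 16.6% lower. At day 6 this held for 8 of 9 (29.8% of all genes higher, 31.1% lower), and at day 12 for 8 of 9 (29.6% higher, 30.2% lower). Between treated days, 6 markers rose and 2 fell from day 2 to day 6, against 44.9% of all genes called (22.6% risen, 22.3% fallen). From day 6 to day 12, 8 rose and Plin2 fell, against 22% of all genes (11% risen, 11% fallen). Between day 2 and day 12, 8 markers rose and 0 fell by edgeR, with Vcam1 not passing, against 43.9% of all genes (22.3% risen, 21.6% fallen). At an unadjusted p under 0.05, and with DESeq2, 1 marker fell in that comparison, and 0 with limma on TPM. Groups did not overlap for 8 of 9 markers between days 2 and 6 (26.1% of all genes higher, 25.4% lower), 8 of 9 between days 6 and 12 (20% higher, 19.3% lower) and 7 of 9 between days 2 and 12 (26% higher, 24.8% lower). An exact permutation test of 1 marker in 3 against 3 libraries cannot go below p = 0.1.

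**Figure D1:**
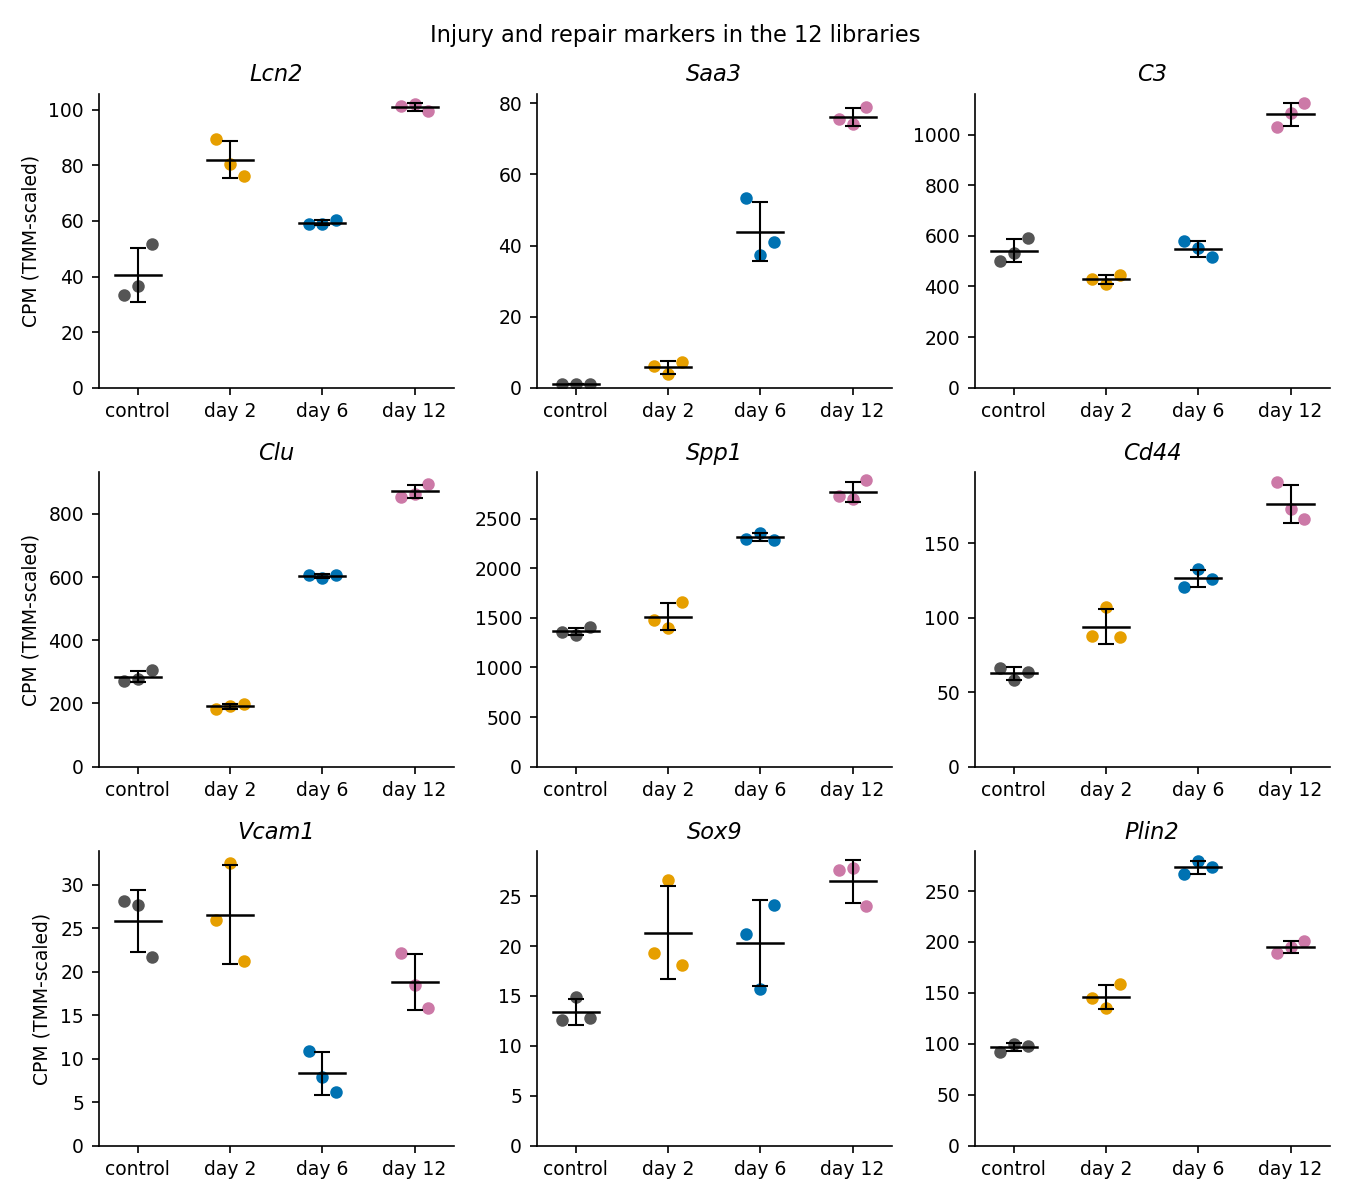
Each panel shows 1 marker, with a point per library, a line at the group mean and CPM on the vertical axis from 0, for control, day 2, day 6 and day 12. Saa3 runs from about 1 CPM to 74.1 to 78.9 CPM, Clu and C3 dip at day 2, Plin2 is highest at day 6, and Vcam1 is lowest at day 6. Havcr1, at 0 in every library, has no panel.

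**Figure D2:**
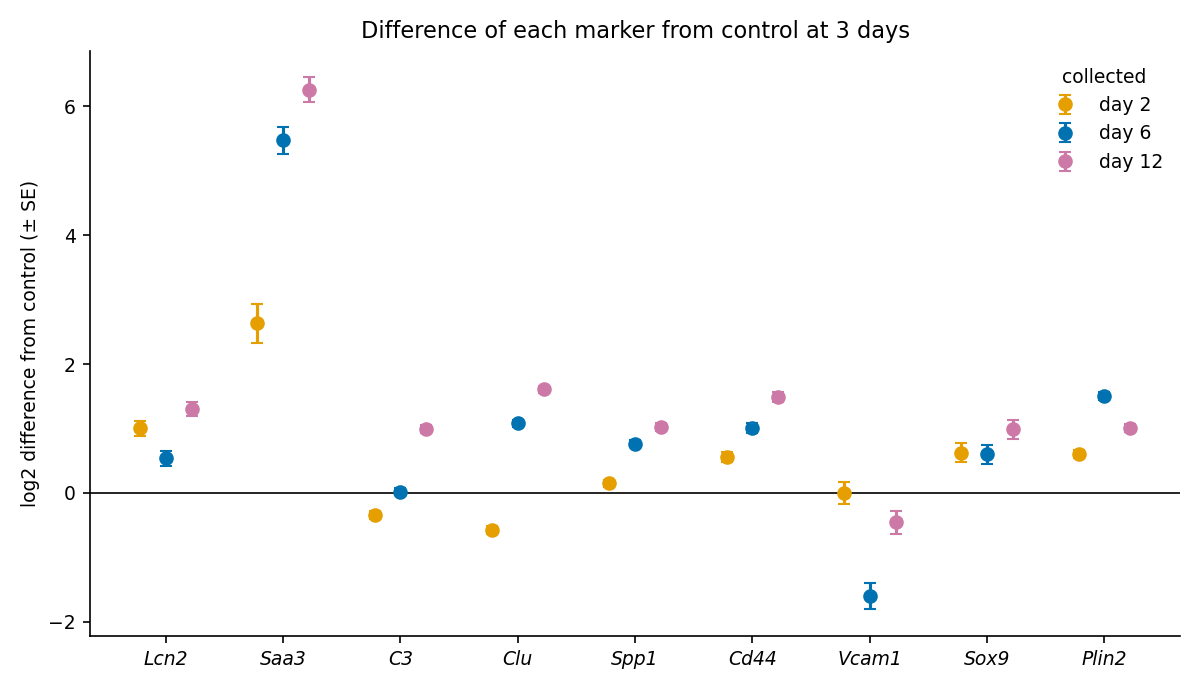
The log2 difference from control of the 9 tested markers is shown at each of 3 collection days, with bars of 1 standard error from the edgeR fit. Saa3 reaches 6.26 at day 12, Vcam1 lies at -1.60 at day 6, and Clu and C3 lie below 0 at day 2 and above it at day 12.

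Saa3 had the largest rise of the markers on every day. It encodes serum amyloid A3, an acute-phase protein made outside the liver in mice (ENSMUSG00000040026, chr7:46711998-46715700, minus strand, GRCm38). Its raw counts were 9, 7 and 9 in control A, B and C, then 45, 16 and 84 at day 2, 536, 339 and 307 at day 6, and 648, 660 and 768 at day 12. Scaled to library size these were 1.04, 0.969 and 0.941 CPM in control, 6.12, 3.74 and 7.17 at day 2, 53.3, 37.5 and 40.9 at day 6, and 75.6, 74.1 and 78.9 at day 12. The 4 groups did not overlap, and each later day lay above the one before it. The rise over control was 6.19-fold at day 2 (log2 difference 2.63 ± 0.31 SE, adjusted p = 1.3e-07), 44.3-fold at day 6 (5.47 ± 0.21, adjusted p = 8.51e-19) and 76.5-fold at day 12 (6.26 ± 0.19, adjusted p = 5.07e-21). Among all 13513 genes its rise ranked 55 at day 2, 47 at day 6 and 45 at day 12. It also rose between days 2 and 6 by 2.84 ± 0.15 and between days 6 and 12 by 0.79 ± 0.10 on the log2 scale. The paralogs Saa1 and Saa2, whose reads could be split with it, had at most 9 and 3 counts in a library, too few to be tested.

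Lcn2, which encodes NGAL, a secreted protein that binds iron-carrying siderophores, rose at every day but not steadily (ENSMUSG00000026822, chr2:32384633-32388252, minus strand). Its level was 33.4, 36.7 and 51.7 CPM in control, 89.4, 80.7 and 76.2 at day 2, 59.0, 58.8 and 60.3 at day 6, and 101, 102 and 99.4 at day 12. Every treated library lay above every control library, and the day 6 libraries lay below those of day 2 and day 12. The log2 difference from control was 1.00 ± 0.11 at day 2 (adjusted p = 9.44e-07), 0.54 ± 0.11 at day 6 (adjusted p = 4.76e-04) and 1.3 ± 0.11 at day 12 (adjusted p = 3.14e-09). The drop from day 2 to day 6 was -0.46 ± 0.11 (adjusted p = 0.00150), and the rise from day 6 to day 12 was 0.77 ± 0.10 (adjusted p = 1.79e-05). With limma on log2(TPM + 1) of the deposited values the drop was -0.33 and was not called (adjusted p = 0.0643). Day 12 lay 0.30 ± 0.10 above day 2 (edgeR adjusted p = 0.0213). This last call was lost without day 2 B (adjusted p = 0.0658), day 2 C (0.108), day 12 A (0.0534) or day 12 B (0.0570) in the same fit.

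Among other acute-phase genes and their regulators, 19 of 26 listed genes were tested. Of these 8 rose and 4 fell at day 2, 13 rose and 2 fell at day 6, and 15 rose and 3 fell at day 12. The list's median log2 difference was 0.17, 0.92 and 0.83 at the 3 days. Across all tested genes, 10.3% rose and 10.9% fell at day 2, 26.7% and 27.6% at day 6, and 26.1% and 26.6% at day 12. Ceruloplasmin (Cp), a copper-carrying ferroxidase, went from 534 ± 34.7 CPM (SD, n = 3) in control to 865 ± 84.8, 2167 ± 103 and 2332 ± 25.5 at days 2, 6 and 12, and rose at each day. Osmr, the receptor of oncostatin M, rose from 9.78 ± 1.69 to 86.5 ± 3.07 CPM at day 12. Slpi, a secreted protease inhibitor, rose from 3.06 ± 0.465 to 32.0 ± 3.81 CPM. Il17rc, a chain of the interleukin-17 receptor, fell from 71.0 ± 6.17 to 29.5 ± 1.89 CPM at day 12. On the TPM scale its mean was 91.9 in control, 37.0 at day 6 and 69.1 at day 12, a smaller difference at day 12.

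Clu and C3 fell first and rose later. Clusterin, the product of Clu, is a secreted chaperone that also binds terminal complement complexes (ENSMUSG00000022037, chr14:65968483-65981547, plus strand). Clu measured 271, 278 and 306 CPM in control, 183, 192 and 198 at day 2, 607, 598 and 608 at day 6, and 854 (A), 864 (B) and 896 (C) at day 12. Its 4 groups did not overlap: day 2 lay below control, and days 6 and 12 above it. The log2 difference from control was -0.58 ± 0.06 at day 2 (adjusted p = 4.01e-10), 1.08 ± 0.05 at day 6 (adjusted p = 2.36e-18) and 1.61 ± 0.05 at day 12 (adjusted p = 2.50e-23). From day 2 to day 12 it rose by 2.19 ± 0.06, or 4.56-fold (adjusted p = 5.94e-26).

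C3 encodes the central complement component, which is cleaved in all complement pathways (ENSMUSG00000024164, chr17:57203970-57228136, minus strand). It measured 500.1, 533 and 592 CPM in control, 428, 411 and 444 at day 2, 581, 550.4 and 517 at day 6, and 1032, 1085 and 1124 at day 12. The day 2 libraries lay below all others, those of day 6 overlapped the controls, and those of day 12 lay above all others. At day 2 the difference was -0.34 ± 0.06 (adjusted p = 3.94e-05). On the TPM scale, log2(TPM + 1) tested with limma, this fall was -0.27 and was not called (adjusted p = 0.161). At day 6 the log2 difference was 0.02 ± 0.06 (adjusted p = 0.785), and at day 12 it was 1.00 ± 0.06 (adjusted p = 2.3e-16), a 1.99-fold rise. The step from day 6 to day 12 alone was 0.97 ± 0.06.

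Of 29 other complement genes, 12 were tested: 3 rose and 1 fell at day 2, 7 rose and 2 fell at day 6, and 9 rose and 2 fell at day 12, with median log2 differences of 0.27, 0.90 and 1.19. The gene fallen at day 2 was Cfi, the gene of complement factor I, and the count fallen was 0 without control A, control B, control C, day 2 A, day 2 B, day 6 B or day 12 B, and also with DESeq2. Among all tested genes, 10.3% rose and 10.9% fell at day 2, 26.7% and 27.6% at day 6, and 26.1% and 26.6% at day 12. Masp1, a serine protease of the lectin pathway, rose from 18.5 ± 1.14 CPM in control to 62.1 ± 6.61, 293 ± 9.06 and 374 ± 7.75 at days 2, 6 and 12 (SD, n = 3). C1ra and C1s1, the proteases of the C1 complex, rose at each day and reached 108 ± 7.94 and 274 ± 10.3 CPM at day 12 from 26.2 ± 1.03 and 55.3 ± 6.08 in control. C4b, which acts just before C3 in the classical and lectin pathways and has a near-identical copy that counting can confuse it with, was at 1.23 ± 0.172 CPM in control and 11.2 ± 2.27 at day 12 and rose at days 6 and 12. The C3a receptor gene C3ar1 had at most 1 count in a library, and C5ar1 had none.

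Spp1 and Cd44, a ligand and its receptor, were both higher than control at days 6 and 12, and Cd44 already at day 2. Osteopontin, the product of Spp1, is a secreted phosphoprotein that binds integrins and CD44 (ENSMUSG00000029304, chr5:104435118-104441050, plus strand). Spp1 was the most abundant of the markers and measured 1360.3, 1330.2 and 1405 CPM in control, 1481, 1397 and 1663 at day 2, 2292, 2359 and 2289 at day 6, and 2727, 2702 and 2887 at day 12. The day 2 libraries overlapped the controls, while days 6 and 12 lay apart from both and from each other. Its log2 difference from control was 0.15 ± 0.06 at day 2 (adjusted p = 0.0533), 0.76 ± 0.06 at day 6 (adjusted p = 9.00e-14) and 1.02 ± 0.06 at day 12 (adjusted p = 2.82e-17). The day 2 difference passed without day 2 B (0.21, edgeR adjusted p = 0.00457), with RLE size factors (0.0396), upper-quartile scaling (0.0287), DESeq2 (0.0259) and the replicate letter as a block (0.0436), and its adjusted p ran up to 0.451 over all alternatives. The step from day 6 to day 12 was 0.26 ± 0.06 (adjusted p = 6.72e-04), and by limma on log2(TPM + 1) it was 0.22 and not called (adjusted p = 0.121). An overlapping gene model on the same strand, Gm42793, had 9 to 78 counts per library.

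CD44 is a cell-surface glycoprotein that binds hyaluronan and osteopontin (ENSMUSG00000005087, chr2:102811141-102901665, minus strand). Cd44 measured 66.1, 57.8 and 63.8 CPM in control, 87.3, 107 and 87.2 at day 2, 120.3, 132 and 126 at day 6, and 191, 173 and 166 at day 12. The groups stood in the order of the days with no overlap. Its log2 difference from control was 0.56 ± 0.08 (adjusted p = 9.44e-07), 1.01 ± 0.08 (adjusted p = 2.66e-13) and 1.49 ± 0.07 (adjusted p = 5.10e-18) at days 2, 6 and 12. The steps from day 2 to day 6 and from day 6 to day 12 were 0.45 ± 0.07 and 0.48 ± 0.07. Counts over the whole gene do not separate its splice forms.

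The listed partners of osteopontin and CD44, with genes that make or break down hyaluronan, moved in both directions, as all tested genes did. Of 30 such genes 21 were tested, and 2 rose and 2 fell at day 2, 9 rose and 7 fell at day 6, and 10 rose and 6 fell at day 12, with median log2 differences of 0.04, 0.18 and 0.15. Among all tested genes, 10.3% rose and 10.9% fell at day 2, 26.7% and 27.6% at day 6, and 26.1% and 26.6% at day 12. The integrin genes Itgb3 and Itgb5, whose proteins pair with the αv chain to bind osteopontin, went from 27.4 ± 2.04 and 230 ± 7.83 CPM in control to 173 ± 6.10 and 473 ± 18.2 at day 12, and both rose at days 6 and 12. Itga9, a chain of another osteopontin-binding integrin, was at 49.4 ± 2.76 CPM in control, 49.7 ± 3.29 at day 2 and 109 ± 4.86 at day 12. Mmp14, a membrane protease that cleaves CD44, rose from 60.6 ± 3.00 CPM to 149 ± 1.78 at day 6 and stood at 115 ± 6.54 at day 12.

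Vcam1 alone among the tested markers fell at day 6. Its product is an adhesion molecule that binds the α4β1 integrin of leukocytes (ENSMUSG00000027962, chr3:116109949-116129688, minus strand). Vcam1 measured 28.1, 27.7 and 21.7 CPM in control, 26.0, 32.5 and 21.3 at day 2, 10.9, 7.85 and 6.13 at day 6, and 22.2, 18.5 and 15.8 at day 12. The day 6 libraries lay below all others, while day 2 and day 12 both overlapped the controls. At day 2 the log2 difference was -0.0018 ± 0.18 (adjusted p = 0.997). At day 6 it was -1.60 ± 0.20 (adjusted p = 3.32e-06), a 3.04-fold lower level, and from day 6 to day 12 Vcam1 rose by 1.15 ± 0.21 (adjusted p = 6.84e-04). The day 6 libraries were also those with the highest Malat1 share, 0.373 to 0.474% of counts, and its part in the low level of Vcam1, the peak of Plin2 and the dip of Lcn2 on that day was not tested.

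At day 12 Vcam1 was still lower than control by a log2 difference of -0.46 ± 0.18 (adjusted p = 0.0413), with overlapping libraries and an exact two-sided permutation p of 0.2. This fall at day 12 did not pass without control A (adjusted p = 0.149), control B (0.127), day 2 A (0.0642), day 6 B (0.0618), day 12 B (0.108) or day 12 C (0.158). It was also lost with upper-quartile scaling (0.0553) and with limma on log2(TPM + 1) (0.117) or log2(TPM + 0.1) (0.125), and over all alternatives the adjusted p ran from 6.31e-04 to 0.158. Against day 2, the level at day 12 differed by -0.45 ± 0.18 (edgeR adjusted p = 0.0543) and passed under 9 of 20 alternatives, among them without control C (0.0409), day 2 C (0.00902), day 6 A (0.0192), day 6 C (0.0314) or day 12 A (0.0230).

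Genes of leukocyte adhesion and recruitment other than Vcam1 were mostly higher after treatment. Of 21 listed genes 15 were tested, of which 9 rose at day 2, 10 at day 6 and 12 at day 12, and 0 fell at each day by edgeR, DESeq2, limma on TPM or an unadjusted edgeR p under 0.05. Their median log2 differences were 0.72, 0.93 and 1.40. Across all tested genes, 10.3% rose and 10.9% fell at day 2, 26.7% and 27.6% at day 6, and 26.1% and 26.6% at day 12. Cx3cl1, a membrane-bound chemokine, rose from 16.8 ± 1.72 CPM in control to 47.4 ± 2.02 at day 6, where Vcam1 was lowest, and 49.1 ± 4.40 at day 12. Cxcl16, another transmembrane chemokine, rose from 18.2 ± 0.695 to 72.1 ± 4.10 CPM at day 12. Mcam, an adhesion molecule of the immunoglobulin family like Vcam1, rose from 28.1 ± 1.93 to 74.1 ± 4.8 CPM, and Cxcl5, a neutrophil chemokine, from 28.8 ± 4.06 to 65.6 ± 1.37 CPM at day 6.

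Sox9 was the least abundant of the tested markers per length at day 2 and, beside Saa3, in control. It encodes a transcription factor of tubule progenitor and repair states (ENSMUSG00000000567, chr11:112782224-112787760, plus strand). Sox9 measured 12.6, 14.9 and 12.8 CPM in control, 19.3, 26.7 and 18.1 at day 2, 21.2, 15.7 and 24.1 at day 6, and 27.7, 27.8 and 24.0 at day 12. All treated libraries lay above all controls, but the treated days overlapped each other. The log2 difference from control was 0.63 ± 0.15 (adjusted p = 0.00295), 0.60 ± 0.15 (adjusted p = 0.00118) and 0.99 ± 0.14 (adjusted p = 1.31e-06) at days 2, 6 and 12. Day 12 lay above day 6 by 0.39 ± 0.14 (adjusted p = 0.0394) and above day 2 by 0.36 ± 0.14 (adjusted p = 0.0361).

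Neither of these late steps of Sox9 was firm. The step from day 6 was lost with DESeq2 (adjusted p = 0.0728), limma on log2(TPM + 1) (0.242) and a replicate block (0.0615), and without control A (0.0503), control C (0.0520), day 2 A (0.0557), day 6 A (0.0735), day 6 B (0.247), day 12 A (0.128) or day 12 B (0.144). The step from day 2 was lost with DESeq2 (0.0735), limma on log2(TPM + 1) (0.102) and a replicate block (0.0581), and without day 2 A (0.139), day 2 C (0.225), day 12 A (0.103) or day 12 B (0.115). Sox9 had 108 to 248 counts per library. Of 19 other SOX genes 7 were tested, and 2 rose and 0 fell at day 2 (0 also by DESeq2, limma or an unadjusted p), 4 rose and 1 fell at day 6, and 3 rose and 2 fell at day 12. The number risen at day 2 was 1 without control A or day 2 A, and the number fallen at day 12 was 1 without control A or day 12 A. Among all tested genes, 10.3% rose and 10.9% fell at day 2, 26.7% and 27.6% at day 6, and 26.1% and 26.6% at day 12. Sox4, which is active in kidney development, rose from 211 ± 9.56 CPM in control to 418 ± 10.9 at day 12, and Sox11 rose from 75.9 ± 3.22 to 95.4 ± 8.29. Sox8, of the same subgroup as Sox9, fell from 13.2 ± 0.684 to 3.61 ± 0.643 CPM at day 6 and 3.00 ± 0.193 at day 12.

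Plin2 rose at every day and was highest at day 6. It encodes perilipin 2, a coat protein of lipid droplets that is itself a target of PPAR receptors (ENSMUSG00000028494, chr4:86648386-86670060, minus strand). Plin2 measured 92.0, 99.5 and 98.2 CPM in control, 145, 135 and 158 at day 2, 267, 279 and 273 at day 6, and 189, 195 and 200.5 at day 12. The 4 groups did not overlap, and day 12 lay between days 2 and 6. Its log2 difference from control was 0.61 ± 0.06 (adjusted p = 1.58e-09), 1.5 ± 0.06 (adjusted p = 6.20e-21) and 1.01 ± 0.06 (adjusted p = 3.74e-16) at days 2, 6 and 12. From day 6 to day 12 it fell by 0.49 ± 0.06 on the log2 scale (adjusted p = 7.09e-08), the only fall of a marker in that interval.

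Of 34 other lipid droplet genes and PPAR targets 23 were tested. At day 2, 2 rose and 3 fell, at day 6, 12 rose and 5 fell, and at day 12, 11 rose and 6 fell, with median log2 differences of 0.03, 0.33 and 0.30. Across all tested genes, 10.3% rose and 10.9% fell at day 2, 26.7% and 27.6% at day 6, and 26.1% and 26.6% at day 12. Plin4, another perilipin, was at 6.89 ± 0.234 CPM in control and 6.50 ± 0.515 at day 2, and rose to 22.9 ± 3.82 at day 6 and 35.4 ± 0.872 at day 12. Pparg, a lipid-sensing nuclear receptor, rose from 1.86 ± 0.232 to 13.3 ± 1.95 CPM at day 12. Mgll, which splits monoglycerides, fell from 34.7 ± 1.90 to 4.00 ± 0.758 CPM at day 2 and 1.31 ± 0.719 at day 12, and Vldlr, a lipoprotein receptor, fell from 533 ± 28.8 to 154 ± 4.99 CPM.

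Havcr1 (ENSMUSG00000040405, chr11:46735080-46779578, plus strand) was listed at 0 counts and 0 TPM (a unit that also takes transcript length into account) in all 12 libraries. Its product KIM-1 is a phosphatidylserine receptor through which injured tubule cells take up dead cells. Over the 102720081 counts of all libraries, a count of 0 allows a level of up to 0.0292 CPM, and 0.256 to 0.702 CPM in a single library, for counting error only. These limits hold if reads of Havcr1 were assigned to it, and a gene that is not transcribed in the line cannot be told apart from one missed in counting. By the same limits, Saa3 in control, at 0.982 ± 0.0494 CPM (SD, n = 3), was detectable. Its relatives Havcr2, Timd2 and Timd4 had at most 1 count in a library.

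Other genes for uptake of dying cells were present. Of 14 listed genes of the TIM family and of phosphatidylserine recognition, 13 had a match by symbol and 9 were tested, and 3 rose and 1 fell at day 2, 5 rose and 2 fell at day 6, and 5 rose and 3 fell at day 12. Across all tested genes, 10.3% rose and 10.9% fell at day 2, 26.7% and 27.6% at day 6, and 26.1% and 26.6% at day 12. Axl, a receptor tyrosine kinase, rose from 187 ± 6.37 CPM in control to 611 ± 19.6 at day 6 and 546 ± 10.9 at day 12, and its ligand Gas6 from 9.06 ± 1.39 to 28.8 ± 1.80 CPM at day 12. Mfge8, a secreted bridge between phosphatidylserine and integrins, rose from 237 ± 8.94 to 447 ± 13.9 CPM. Adgrb1, a receptor for phosphatidylserine, fell from 7.11 ± 0.658 to 0.184 ± 0.235 CPM.

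Levels of different genes are compared on the deposited TPM scale. In control, Spp1 stood at 1775 ± 111 TPM (SD, n = 3), followed by Clu at 289 ± 27.3, C3 at 171 ± 14.9, Lcn2 at 94.0 ± 24.6 and Plin2 at 92.4 ± 0.770. Below them lay Cd44 at 25.6 ± 2.84 TPM, Vcam1 at 12.3 ± 1.40, Saa3 at 5.15 ± 0.150 and Sox9 at 5.10 ± 0.336. Lcn2 and Plin2 overlapped in this order, as did Saa3 and Sox9. Spp1 ranked 43 to 52 among all genes by TPM in the control libraries and 18 to 21 at day 12, where it reached 3708 ± 154 TPM.

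By day 12 Saa3 had moved from near the bottom of that order to the third place, at 399 ± 21.1 TPM, behind Clu at 880 ± 37.0 and overlapping C3 at 359 ± 34.5. Lcn2 followed at 237 ± 4.49 TPM, Plin2 at 203 ± 10.6 and Cd44 at 75.6 ± 2.75. Sox9 at 10.5 ± 0.883 TPM and Vcam1 at 9.43 ± 1.90 overlapped at the bottom. At day 6 Vcam1 was lowest of the tested markers, at 4.64 ± 0.840 TPM.

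**Figure D3:**
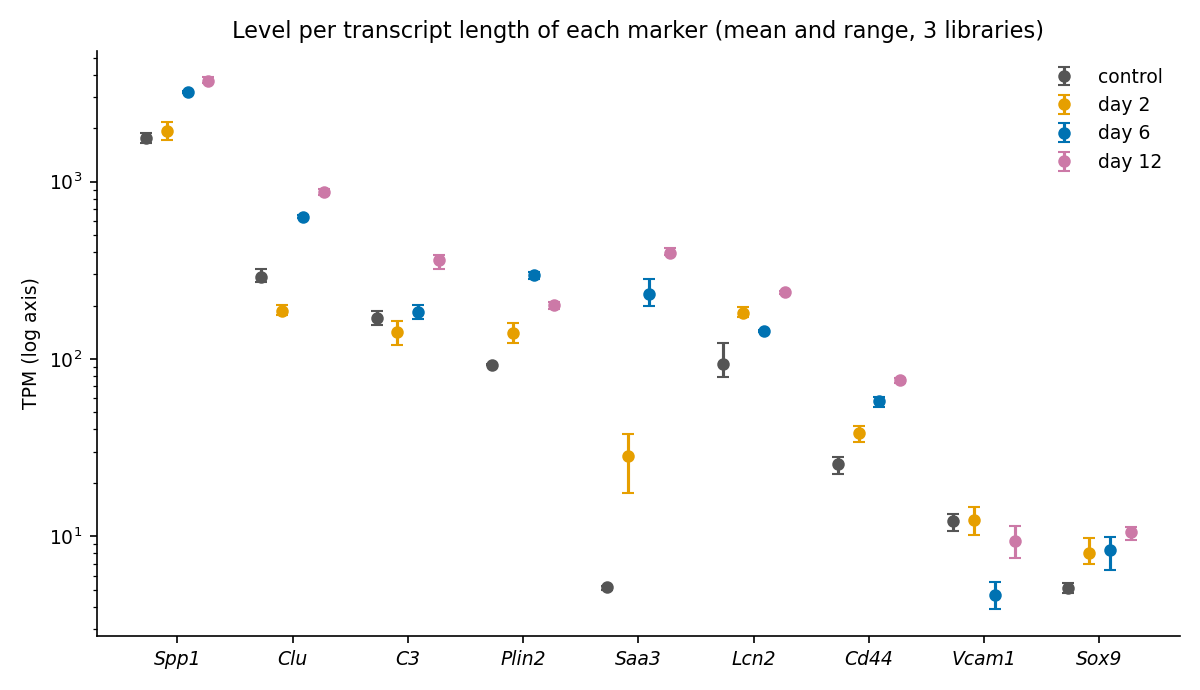
The level of each tested marker is shown in deposited TPM on a log axis, with the mean and the range of 3 libraries for each group. Spp1 is highest in every group, and Saa3 moves from 5.15 TPM in control to 399 TPM at day 12.

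Across the 12 libraries the tested markers followed several courses. The highest Pearson correlation of log2 CPM between 2 markers was 0.97 for Spp1 and Saa3, followed by 0.95 for Cd44 and Saa3 and 0.93 for Clu and Spp1. The lowest was -0.84, for Vcam1 and Plin2, which were lowest and highest at day 6. These values describe 12 libraries that fall into 4 groups and share their treatment, so they carry no p-value.

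The genes whose course was most like that of a marker over the 12 libraries were sought among 10469 tested genes with a mean of at least 5 CPM. For Saa3 the nearest was the complement protease gene Masp1 (r = 0.996), and for Plin2 it was Gc, which encodes the vitamin D binding protein (r = 0.997). Gc went from 2.81 ± 0.584 CPM in control to 13.1 ± 2.71, 119 ± 14.6 and 43.3 ± 2.74 at days 2, 6 and 12, with its peak at day 6 like Plin2. Thbs1, the gene of the matrix protein thrombospondin 1, had the same order (r = 0.993 with Plin2), with 313 ± 7.90, 667 ± 27.8, 1872 ± 35.6 and 1024 ± 27.7 CPM. Nearest to Clu was Id3, an inhibitor of helix-loop-helix factors (r = 0.99), which stood at 17.4 ± 1.68 CPM in control, 11.1 ± 3.50 at day 2 and 196 ± 7.99 at day 12. Nearest to C3 was Gja1, the gap junction gene of connexin 43 (r = 0.96), with 3.19 ± 0.374 CPM in control, 4.08 ± 0.563 at day 6 and 14.3 ± 0.965 at day 12. Nearest to Lcn2 was Fah, an enzyme of tyrosine breakdown (r = 0.94). Close behind it, Col12a1, a collagen gene, shared the dip at day 6 (r = 0.94), at 15.2 ± 0.943, 66.1 ± 6.76, 41.1 ± 4.70 and 92.1 ± 3.67 CPM. Nearest to Vcam1 was Ipo11, a nuclear import receptor gene (r = 0.96). Antxr2 was nearest to Spp1 (r = 0.996), Hacd2 to Cd44 (r = 0.99) and Ssbp3 to Sox9 (r = 0.93).

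Most of the tested transport and differentiation genes were lower after treatment. Of 39 genes of differentiated proximal tubule 18 were tested: 2 rose and 12 fell at day 2, 1 rose and 14 fell at day 6, and 2 rose and 14 fell at day 12, with median log2 differences of -0.77, -1.24 and -1.51. The number fallen at day 2 was 11 with any 1 library left out. Across all tested genes, 10.3% rose and 10.9% fell at day 2, 26.7% and 27.6% at day 6, and 26.1% and 26.6% at day 12. Aqp1 rose at every day. Anpep, a brush border peptidase, fell from 114 ± 2.75 CPM in control to 33.1 ± 2.3 at day 2 and 7.11 ± 0.522 at day 12, and Slc4a4, the basolateral bicarbonate transporter, from 98.5 ± 2.05 to 34.6 ± 1.77 CPM. Lrp2, the endocytic receptor megalin, measured 268 ± 17.2, 112 ± 10.3, 230 ± 15.6 and 95.9 ± 2.88 CPM at control and days 2, 6 and 12.

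Other genes reported for injured or failed-repair proximal tubule moved in both directions, with more risen than fallen at each day. Of 48 such genes 45 were tested, of which 17 rose and 11 fell at day 2, 22 rose and 14 fell at day 6, and 22 rose and 10 fell at day 12. The median log2 difference was 0.18, 0.22 and 0.37. Among all tested genes, 10.3% rose and 10.9% fell at day 2, 26.7% and 27.6% at day 6, and 26.1% and 26.6% at day 12. Cdh6, a cadherin of immature and injured tubule, fell from 730 ± 23.1 CPM in control to 340.2 ± 6.81, 112 ± 4.59 and 101 ± 0.597 at days 2, 6 and 12. Akap12, a kinase scaffold, fell from 1567 ± 57.4 to 274 ± 13.6 CPM at day 12, and Sema5a, a semaphorin, from 460 ± 23.8 to 35.1 ± 2.65 CPM. Cp, also counted in this list, rose as given above.

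**Figure D4:**
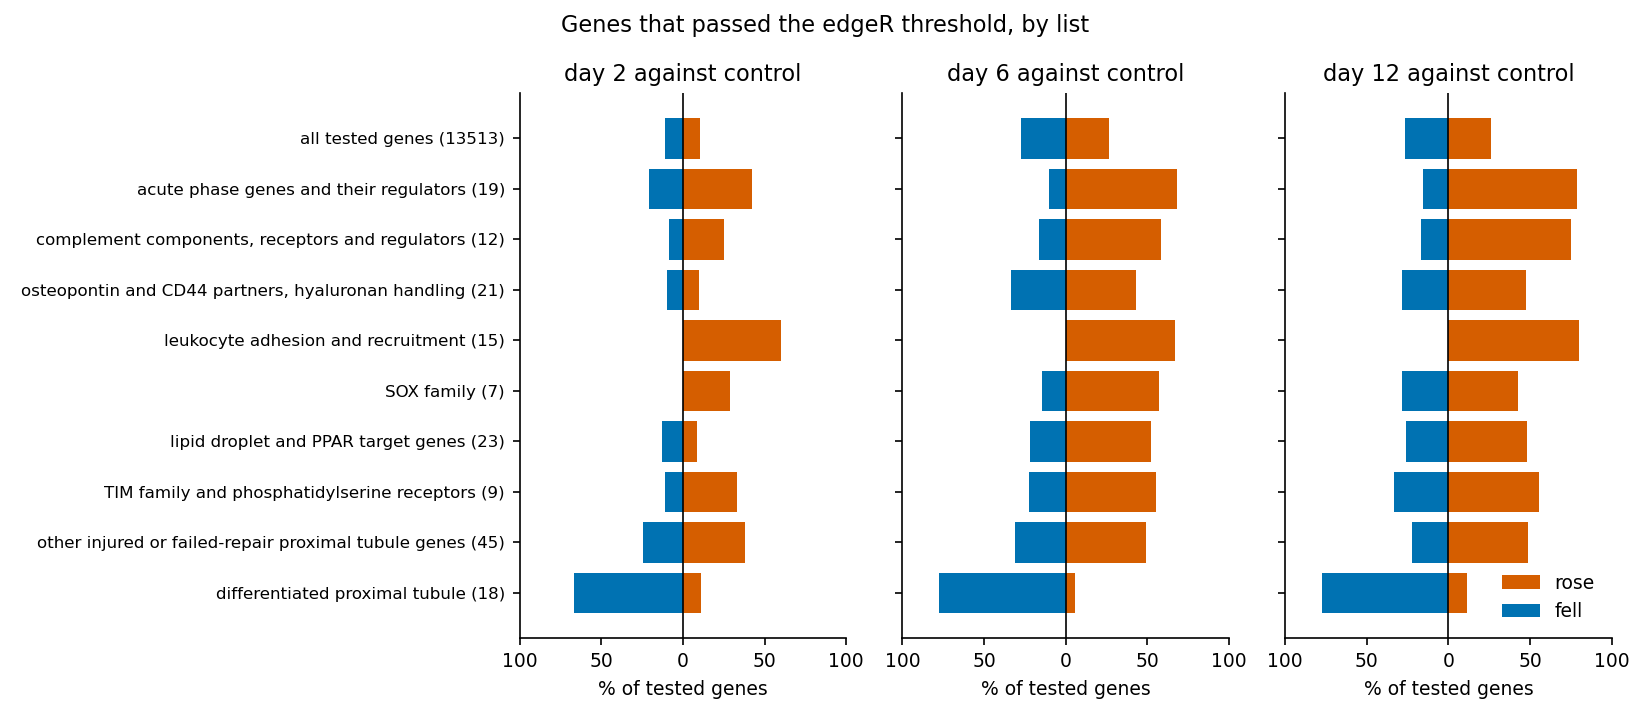
Bars to the right and left of 0 show the percentage of tested genes that rose and fell against control by edgeR. Days 2, 6 and 12 are shown for the related lists and for all 13513 tested genes. Among leukocyte adhesion genes 9, 10 and 12 of 15 rose at the 3 days. Among differentiated proximal tubule genes 12, 14 and 14 of 18 fell.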

How the data were processed

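PolyA RNA of 12 libraries of the PT-22 line was measured, 3 in each of 4 groups taken from the labels. The tools of the authors, per the submitters' processing notes, were STAR 2.7.8a and RSEM 1.3.3 on GRCm38, with cutadapt 2.3 and FastQC 0.11.8. The annotation release, strand use and filters are not given in the sources used here. The authors deposited RSEM's expected counts, unnormalized and already whole, so that rounding changed nothing, and TPM values, which they scaled by transcript length and library.

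Counts were filtered with filterByExpr by group, scaled by TMM and tested in R 4.3.3 with edgeR 4.0.16 (robust quasi-likelihood fit, all 12 libraries, group as the only term, 8 residual degrees of freedom). Tests were two-sided, with Benjamini-Hochberg adjustment over 13513 genes and 0.05 as the threshold. SE is the log2 difference divided by the square root of the F statistic. CPM uses TMM-scaled totals, and correlations use log2 CPM with a prior count of 2. The script was tested on simulated counts. Between replicates, chi-square per degree of freedom ran from 2.12 to 7.56, so no pair was counted as 1 library. Alternatives were other scalings, DESeq2 1.42.0, no filter, limma 3.58.1 on log2(TPM + 1) and log2(TPM + 0.1), 2-group fits, a replicate block and leaving out each library.

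The members, lists and tests were chosen with earlier results of these data known. In each related list up to 4 genes with the smallest p against control could be named, and up to 3 genes nearest each marker. Saa1, Saa2, Havcr2, Timd2, Timd4, C3ar1, C5ar1, Cfi, Aqp1, Hnf4a, Malat1 and single markers of leukocytes, endothelium, fibroblasts and smooth muscle were named after their values were seen. Positions are from GENCODE M21 on GRCm38. Intervals and limits cover counting error only.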

Additional observations from a re-analysis of the deposited data

Results flagged for a closer look

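Clu moved in opposite directions at different days, below every control library at day 2 and above every control library at days 6 and 12. The difference between days 6 and 2 was 1.66 ± 0.06 on the log2 scale (edgeR adjusted p = 1.66e-22), and that between days 12 and 2 was 2.19 ± 0.06 (edgeR adjusted p = 5.94e-26). C3 did the same between days 2 and 12, where the difference was 1.33 ± 0.06 (edgeR adjusted p = 2.95e-19). By CPM, all 3 libraries of each day lay on the side given. By TPM, C3 in day 2 A (163) lay above that in control B (156). Its fall at day 2 was not called by limma on log2(TPM + 1) (adjusted p = 0.161).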

How the results depend on the processing

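The 54 member results, 9 tested markers in 6 comparisons, were recomputed under 20 alternatives each. Of these 1080 values, 1010 kept their direction and their side of the threshold, 38 no longer passed, 14 newly passed and 18 changed sign. The sign changes were in differences that never passed: Vcam1 at day 2 against control became 0.0048 with RLE, 0.0145 with upper-quartile scaling, 0.0250 with DESeq2, 5.49e-04 with limma on log2(TPM + 1), 0.0013 with 2 groups and 0.0183 with the replicate block, and ran from -0.14 to 0.16 with 1 library left out. C3 at day 6 against control ran from -0.0341 to 0.0891 with 1 library left out, and Sox9 between days 2 and 6 from -0.16 to 0.13, with 0.0456 and 0.0498 by limma on log2(TPM + 1) and log2(TPM + 0.1). Pax8 between days 6 and 12 became 0.00706 and 0.00712 in these limma fits.

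The number of markers fallen at day 2 was 1, in place of 2, in both limma fits, and so was the number fallen from day 2 to day 6. At day 12 the number fallen against control was 0 in place of 1 with upper-quartile scaling and both limma fits, and 0 to 1 with 1 library left out. Between days 2 and 12 the number fallen was 1 in place of 0 with DESeq2, no filter, 2-group fits and the replicate block, and 0 to 1 with 1 library left out. The cause of these changes was not tested.

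Over all genes, limma on log2(TPM + 1) gave some counts that were much lower: 745 risen at day 2 in place of 1392, 2181 fallen at day 6 in place of 3729, 2398 fallen at day 12 in place of 3601, 1383 fallen from day 2 to day 6 in place of 3007, 496 risen and 883 fallen from day 6 to day 12 in place of 1482 and 1489, and 1571 fallen between days 2 and 12 in place of 2922. With log2(TPM + 0.1) these were 774, 2165, 2380, 1380, 443, 857 and 1577, and 951 fell at day 2 in place of 1468. Other counts moved less. Over the 8 alternatives that were not leave-outs of a library, 3400 to 3729 genes rose at day 6 (3614 in the main fit). From day 2 to day 6, 2788 to 3372 rose (3055 in the main fit). On the TPM scale the median of all genes between days 2 and 6 moved by 0.12, or 0.13 with the smaller pseudocount, and other scalings moved it by less.

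Of 1080 counts over the related lists, 1044 stayed within 1.5 times and 36 moved further. Of these, 13 were in complement genes (all in the number fallen) and 10 in SOX genes. Libraries with the same letter did not deviate together (18 pairs, r from -0.15 to 0.11, 1 over 0.1), and 3 of 12 correlated best with their own letter, so the letters are not taken as pairs. The replicate block changed the calls of Spp1 at day 2, Sox9 at day 12 against days 2 and 6, and Vcam1 between days 2 and 12 (adjusted p = 0.00180). Counts per library were 46 to 249 for Vcam1, 108 to 248 for Sox9 and 7 to 9 for Saa3 in control. The coefficient of variation within a group was 13.8 to 29.3% for Vcam1 and 8.09 to 21.7% for Sox9, and the share of counting error in it was not tested.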
